A study of Monodelphis domestica with 6 samples.

Results

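The Krüppel-like factors (KLFs) are zinc-finger transcription factors, and 10 of them were followed here from *Monodelphis domestica* neonatal skin fibroblasts (neoSFs) to the induced pluripotent stem cells (monoiPSCs) reprogrammed from them. The 10 genes were chosen by name from the gene symbols of the deposited tables (*KLF2*, *KLF3*, *KLF4*, *KLF5*, *KLF6*, *KLF7*, *KLF9*, *KLF10*, *KLF11* and *KLF12*), all 10 had a row among the 35665 genes, and all 10 passed the expression filter. The 2 neoSF libraries came from primary cultures of wild-type, 10-day-old female pups of the inbred strains FD2M1 and LSD1, expanded for 3 to 4 passages in medium with fetal bovine serum. The 4 monoiPSC libraries came from wild-type FD2M1 and LSD1 lines, each sequenced at passage 15 and at passage 25, and grown without feeder cells in a medium that listed human LIF and bFGF and no serum. The lines had been made by nucleofection of episomal plasmids that carry human *OCT4*, *SOX2*, *NANOG*, *KLF4*, *LIN28* and *cMYC*, together with a p53 dominant-negative construct and EBNA1. The normalized read count (NRC) is the gene's count divided by a size factor for its library. Tests ran on the 13072 genes whose NRC reached 20 in every library of at least 1 cell type, with edgeR's quasi-likelihood method and p-values adjusted by Benjamini and Hochberg. A gene was called differentially expressed (DE) when it changed at least 2-fold with an adjusted p no higher than 0.05.

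KLFs bind GC-rich and CACCC-type DNA elements through C-terminal zinc fingers that are very similar between members, while the rest of the protein differs and decides whether a member activates or represses. In mouse embryonic stem cells *KLF2*, *KLF4* and *KLF5* support the naive state, with *KLF4* induced by LIF through STAT3, and *KLF4* is one of the classical reprogramming factors. In skin and connective tissue the family is known for roles in epidermal barrier formation, the response to serum and wounding, and the response to TGF-beta and steroid hormones.

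The libraries held 14278794 and 16982978 counts for the neoSFs and 28684754 to 35564261 for the monoiPSCs. The neoSFs were sequenced in-house with shorter single-end reads and the monoiPSCs by a service with longer paired-end reads, so platform, medium and cell type cannot be told apart. Each strain gave 1 neoSF library, and the 2 monoiPSC libraries of a strain are passages of the same line, so p-values measure the spread between these libraries only. The labelled cell types were checked against markers. All 11 fibroblast markers with a row were DE and lower in the monoiPSCs, and all 6 pluripotency markers were DE and higher, with *POU5F1*, *SOX2*, *NANOG* and *LIN28A* at 3 counts or fewer in both neoSF libraries. The keratinocyte markers *KRT14* and *IVL* and the endothelial markers *PECAM1* and *CDH5* were at 3 counts or fewer in both neoSF libraries as well, the keratinocyte marker *DSG3* had an NRC of 46.8 and 147.8 there, and the summed NRC of 5 leukocyte markers was 125.5 and 127.6. In the monoiPSCs the 5 leukocyte markers summed to 54.9 to 74.6 and the 4 keratinocyte markers to at most 6.74. *DSG3* and the leukocyte marker *CSF1R* were DE and lower in the monoiPSCs. Of 3 tested endothelial markers, *VWF* was lower, *TIE1* higher and *KDR* not called. In the FD2M1 and LSD1 neoSFs *KDR* had an NRC of 210.4 and 28.8, *VWF* 46.2 and 108.9, and *TEK* 4.23 and 22.7. Of the melanocyte list *DCT* alone was higher in the monoiPSCs, at 4372 to 15280, while *MITF* was not called (log2 fold change -0.11, adjusted p = 0.77) and *TYR* and *MLANA* had an NRC of at most 18.2 there. All 3 tested neural markers were DE and higher. The part of these RNAs in the KLF values was not tested.

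Of the 10 KLF genes, 6 were lower in the monoiPSCs, 0 were higher and 4 were not called. The 6 lower genes were *KLF2*, *KLF4*, *KLF6*, *KLF7*, *KLF12* and *KLF10*, in the order of their fold changes. Among all genes tested 21.6% were called lower and 24.3% higher, so the share of KLF genes called lower, 60.0%, lay above the background. The KLF genes were chosen with earlier results of these data known, so this share is a description and not a test. DESeq2 also called 6 of the KLF genes lower, beside 22.6% of all genes. At an unadjusted p under 0.05, 0 KLF genes were higher in the edgeR fit, and DESeq2 and limma called 0 higher. The median log2 fold change of the 10 genes was -1.39, beside 0.08 over all genes tested. In 8 of the 10 genes every monoiPSC library lay below both neoSF libraries, which was the case for 37.1% of all genes tested, while 0 of the 10 and 36.1% of all genes lay above both in every monoiPSC library. An exact permutation test of 4 libraries against 2 has 15 splits and cannot give a two-sided p below 0.0667, which is the value for each of the 6 lower genes.

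**Figure D1:**
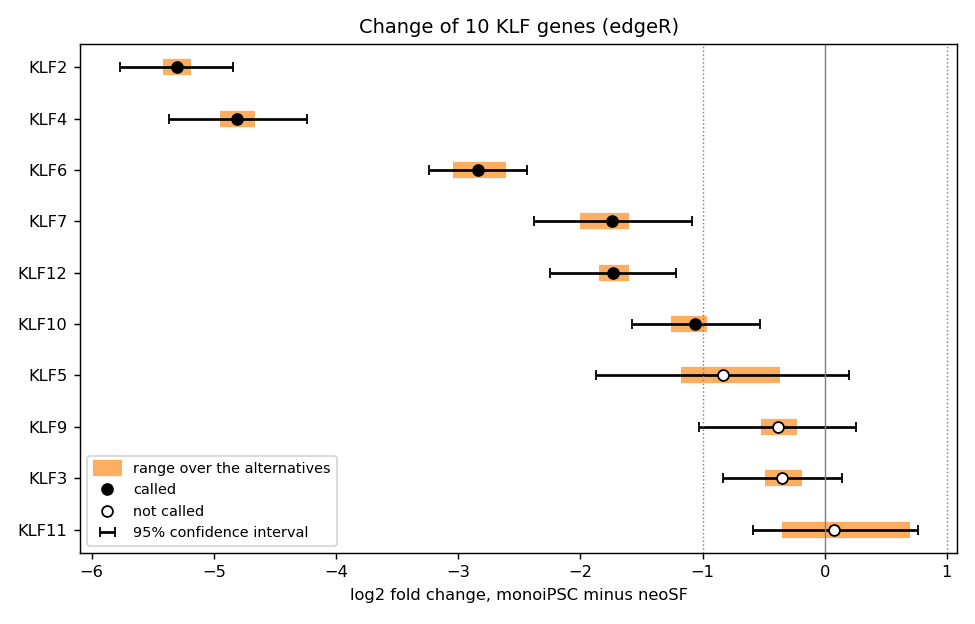
Log2 fold change of each KLF gene (monoiPSC minus neoSF, x axis) with its 95% confidence interval from edgeR (black bars) and the range over 13 alternative analyses (orange). Filled points are called genes. *KLF2* and *KLF4* sit near -5, *KLF6* at -2.84, and the 4 open points have intervals that include 0.

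*KLF2* is known from blood vessel endothelium, where shear stress induces it, and from the naive pluripotency network. The gene (number 100014710, on chromosome 3 of the MonDom5 assembly) reached an NRC of 3866 in FD2M1 and 3640 in LSD1 fibroblasts. The FD2M1 monoiPSCs held 66.0 at passage 15 and 101.3 at passage 25, and the LSD1 monoiPSCs 86.7 and 101.7. These values are 1.76% to 2.71% of the neoSF mean, and the difference was far beyond the spread within either group. On the log2 scale the fold change was -5.30 (standard error 0.20, adjusted p = 7.81e-06), and 312 of the 13072 genes tested had a lower value.

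*KLF4* (gene 100022159, chromosome 6) is the reprogramming factor that the plasmids supplied as the human gene, and it is otherwise known from the differentiating epidermis. The NRC of opossum *KLF4* was 1634 in FD2M1 and 1960 in LSD1 fibroblasts. It was 43.2 and 62.1 in the FD2M1 monoiPSCs and 77.3 and 58.0 in the LSD1 monoiPSCs, at passages 15 and 25. The monoiPSC libraries therefore held 77 to 147 counts each, which is 2.40% to 4.30% of the neoSF mean in NRC. *KLF4* fell by 4.81 on the log2 scale (standard error 0.24, adjusted p = 1.51e-05) and had 387 tested genes below it. Whether reads from the human *KLF4* plasmid were counted on the opossum gene was not tested. The summed NRC of the 11 fibroblast markers was 0.232% to 0.526% of the neoSF mean in the monoiPSC libraries, a sum made up mostly of collagens, *DCN* and *LUM*. Single markers ranged from 0% for *TWIST2* and *COL6A3* to 40.8% for *PDGFRA*. *THY1* kept 2.28% to 5.10%, more than *KLF4* in 3 of the 4 libraries, and *PDGFRB* kept 2.75% and 2.78% in the LSD1 libraries, more than *KLF2* there. The FD2M1 library at passage 15 had the highest fibroblast share, 0.526%, and the lowest *KLF2* and *KLF4* of the 4 monoiPSC libraries. Single markers differed in this. *COL1A1*, *COL3A1*, *DCN*, *PDGFRA* and *FAP* were highest in that library, while *COL5A1*, at 1.43%, and *PDGFRB*, at 1.08%, were lowest there. The part of remaining fibroblast RNA in the *KLF2* and *KLF4* values was not tested.

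**Figure D2:**
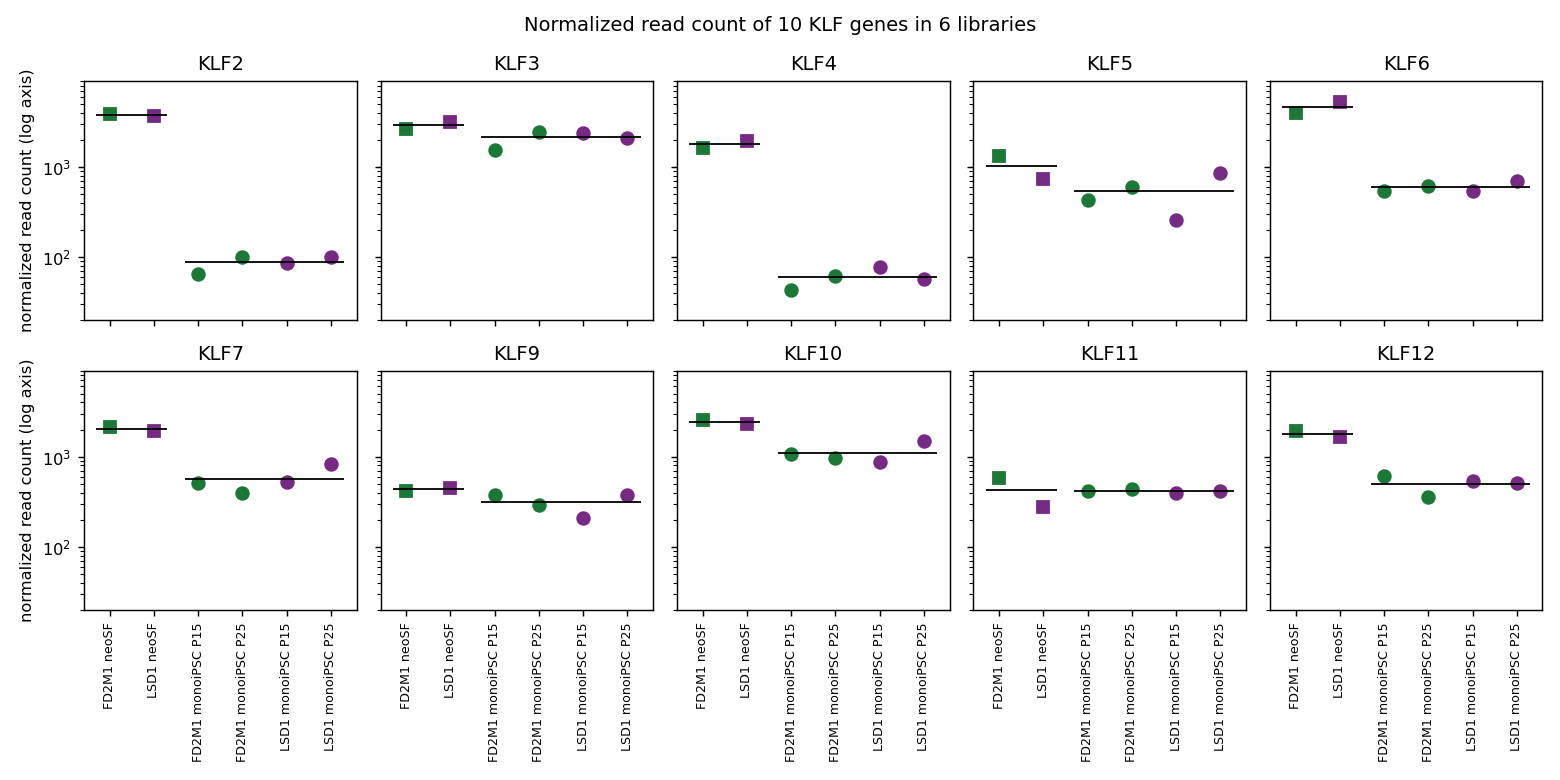
NRC on a log axis (y) of the 10 KLF genes in each of the 6 libraries (x). Squares are neoSFs, circles monoiPSCs, green FD2M1 and purple LSD1, and the horizontal lines are group means. *KLF2*, *KLF4* and *KLF6* separate the groups widely, while the *KLF5* and *KLF11* values of the groups overlap.

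*KLF6* and *KLF7* are close relatives. *KLF6* is widely expressed and induced after tissue injury, and *KLF7* is known from neurons. *KLF6* (gene 100017873, chromosome 8) had an NRC of 3940 and 5232 in FD2M1 and LSD1 fibroblasts. The 4 monoiPSC libraries lay between 544.9 in the earlier FD2M1 and 696.3 in the later LSD1 library, so that 11.9% to 15.2% of the neoSF mean was left. *KLF6* fell by 2.84 on the log2 scale (standard error 0.17, adjusted p = 2.45e-05). *KLF7* (gene 100016559, chromosome 7) stood at 2128 in FD2M1 and 1920 in LSD1 fibroblasts. In monoiPSCs the FD2M1 line had 510.1 at passage 15 and 398.1 at passage 25, and the LSD1 line 524.5 and 839.3. The groups did not overlap, and the log2 fold change of *KLF7* was -1.74 (standard error 0.28, adjusted p = 0.00128).

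*KLF12* (gene 103104259, chromosome 7) encodes a repressor that recruits CtBP, first described at the AP-2alpha gene. Its NRC of 1928 and 1632 in the FD2M1 and LSD1 neoSFs stood against 355.8 to 603.2 in the monoiPSCs. Both extremes of the monoiPSC range came from the FD2M1 line, with the lower value at passage 25. *KLF12* fell by 1.73 on the log2 scale (standard error 0.22, adjusted p = 0.000465), nearly the same value as *KLF7*.

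*KLF10* and *KLF11* were first described as TGF-beta-inducible early genes, and both repress through the SIN3A corepressor. *KLF10* (gene 100023770, chromosome 3) stood at an NRC of 2574 in FD2M1 and 2332 in LSD1 fibroblasts. In the monoiPSCs the FD2M1 line had 1066 and 961.0 and the LSD1 line 874.6 and 1510, at passages 15 and 25. The log2 fold change of *KLF10* was -1.06 (standard error 0.22, adjusted p = 0.00483), the smallest among the called members. It stood close to the 2-fold threshold and came under it at -0.99 without the FD2M1 neoSFs and -0.96 without the LSD1 line's passage 15, and marginally without the FD2M1 line's passage 25, with an adjusted p no higher than 0.0275 in any alternative. *KLF11* (gene 100031998, chromosome 1) was the only member whose fitted change was not negative. FD2M1 fibroblasts had an NRC of 573.4 and LSD1 fibroblasts 273.9, and the 4 monoiPSC libraries lay between these values, from 397.1 to 438.7. With a log2 fold change of 0.08 (95% confidence interval -0.59 to 0.76, adjusted p = 0.815), *KLF11* was not called. The monoiPSC libraries varied by 4.07% (SD as a percent of the mean, n = 4), the least of the 10 members, while *KLF5* varied by 47.0%.

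*KLF3*, *KLF5* and *KLF9* were not called. *KLF3* (gene 100022391, chromosome 5), a repressor that works through CtBP, had an NRC of 2615 and 3184 in the FD2M1 and LSD1 neoSFs. In the FD2M1 monoiPSCs it was 1566 at passage 15 and 2481 at passage 25, and in the LSD1 monoiPSCs 2358 and 2128. All 4 values lay below both neoSF values, but the log2 fold change of -0.35 had a 95% confidence interval from -0.83 to 0.14 (adjusted p = 0.178), which leaves out a 2-fold change. *KLF9* (gene 100015192, chromosome 6), a gene induced by glucocorticoid and thyroid hormone, had an NRC of 419.2 and 453.4 in the neoSFs and 209.0 to 377.5 in the monoiPSCs. The groups did not overlap here either. The interval of its log2 fold change of -0.38 reached from -1.03 to 0.26 (adjusted p = 0.259).

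*KLF5* (gene 100010455, chromosome 7) is known from proliferating epithelia and from the early embryo, and in mouse embryonic stem cells it supports self-renewal. FD2M1 fibroblasts had an NRC of 1315 and LSD1 fibroblasts 742.2. At passages 15 and 25 the FD2M1 line had 436.3 and 607.6, and the LSD1 line 261.9 and 857.6. The LSD1 library at passage 25 was thus above the neoSFs of its own strain, and the other 3 were below both neoSF libraries. *KLF5* had a log2 fold change of -0.83 with a 95% confidence interval from -1.87 to 0.20 (adjusted p = 0.138), wide enough to include both no change and a change of more than 2-fold. Without LSD1 at passage 25 the value was -1.16 (adjusted p = 0.0406), which would be called.

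When each monoiPSC library was compared with the neoSFs of its own strain, 8 of the 10 genes were lower in 4 of 4 libraries, as were 40.1% of all genes tested. Both passages of a line share 1 neoSF library, so the 4 values are not independent. *KLF2* differed from its own neoSFs by -5.87 to -5.16 on the log2 NRC scale, *KLF4* by -5.24 to -4.66 and *KLF6* by -3.25 to -2.69. The exceptions were *KLF5*, at -1.59 and -1.11 in FD2M1 and -1.50 and 0.21 in LSD1, and *KLF11*. *KLF11* was at -0.45 and -0.39 in FD2M1 and at 0.54 and 0.62 in LSD1. The strains differed in the neoSFs, where LSD1 minus FD2M1 was -1.07 on the log2 scale, and little in the monoiPSCs, where it was -0.06 (standard error 0.20, adjusted p = 0.916). A difference of the change between strains was called for 0 of the 10 genes (interaction of strain and cell type in edgeR). For *KLF11* it was 0.98 on the log2 scale, with a 95% confidence interval from 0.10 to 1.87 (adjusted p = 0.491), and a test with 1 neoSF library per strain does not show that the strains changed alike. Without adjustment 1 KLF gene, *KLF11*, was under 0.05 in edgeR's quasi-likelihood test, as were 9.13% of all genes tested. Of all genes, edgeR called 0.0841% and DESeq2 2.33% for this interaction, and DESeq2 and limma called 0 of the 10.

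**Figure D3:**
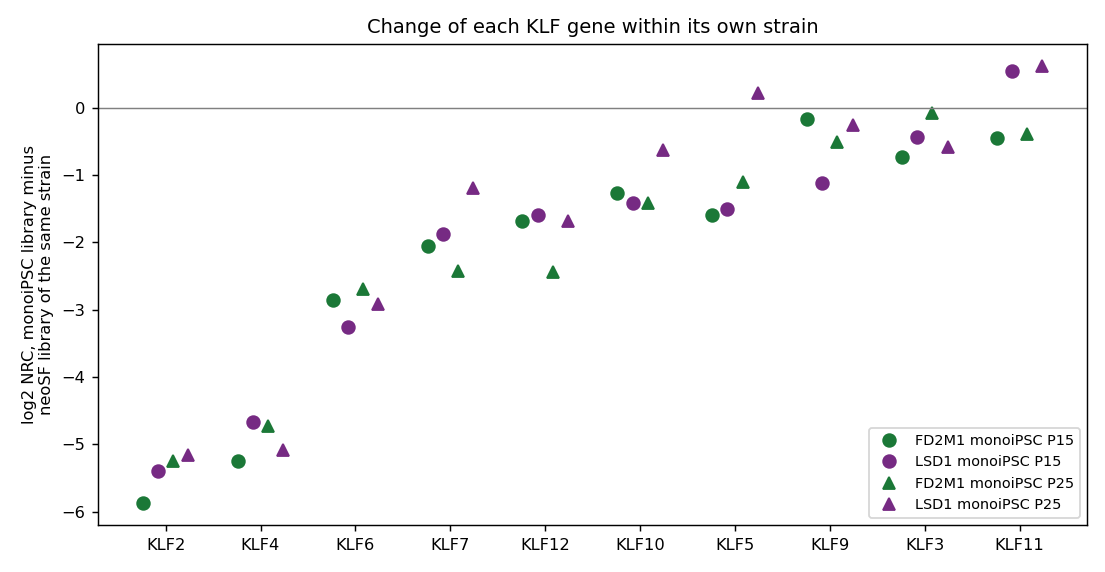
Log2 NRC of each monoiPSC library minus that of the neoSF library of the same strain (y) for each KLF gene (x). Circles are passage 15, triangles passage 25, green FD2M1 and purple LSD1. All points of *KLF2* and *KLF4* lie below -4, and the *KLF11* points lie below 0 for FD2M1 and above 0 for LSD1.

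Among the monoiPSC libraries, 0 of the 10 genes were called between passage 25 and passage 15 with the line as covariate, and 0 between the LSD1 and FD2M1 lines with passage as covariate. edgeR called 0% of the 12252 genes tested in either comparison, while DESeq2 called 0.977% and 1.66%, with 0 KLF genes among them, and limma called 0 KLF genes. Without adjustment, 1 member, *KLF5*, was under 0.05 for passage, beside 9.35% of all genes tested, and 0 were for the line, beside 14.2%. The adjusted p of *KLF5* was 0.414. *KLF5* was 1.08 higher at passage 25 on the log2 scale (standard error 0.31), by 0.48 in FD2M1 and by 1.71 in LSD1. For *KLF2* the difference was 0.40, with a 95% confidence interval from -0.44 to 1.24, and for *KLF4* it was 0.03, with an interval from -0.98 to 1.03, so neither interval left out a 2-fold difference between passages. *KLF12* had the opposite sign, -0.44 (standard error 0.23, adjusted p = 0.591). LSD1 at passage 25 had the highest NRC of the 4 libraries for 6 of the 10 genes, for *KLF2* by only 101.7 against 101.3. The share of all genes tested that were highest in this library was not counted. The 6 of 10 can therefore not be read as particular to the KLF genes. The summed NRC of the 4 skeletal muscle markers with a row was highest in the LSD1 library at passage 25. This sum was 10350, against 1341 to 5006 in the other 3 libraries and 1180 and 334.5 in the neoSFs. Whether muscle cells were present, or had a part in the KLF values, was not tested. In that library *MYOG* reached 5549, *DES* 4213 and *MYOD1* 591.4, while *MYF5* was at 1.03. *KLF7*, the one of the 10 genes with the widest gap between LSD1 and FD2M1, was 0.56 higher in LSD1 (standard error 0.27, adjusted p = 0.419).

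Summed over the 10 genes, the KLF signal was an NRC of 20990 and 21370 in the neoSFs and 5625 to 7493 in the monoiPSCs. The shares of this sum are not corrected for gene length, so they are not to be read between genes. Read length and layout differed between the neoSFs and monoiPSCs, and their part in the shares and ratios was not tested. *KLF2* took 18.4% and 17.0% of the sum in the neoSFs and 1.17% to 1.60% in the monoiPSCs, and *KLF4* took 7.78% and 9.17% against 0.768% to 1.32%. *KLF3* took 12.5% and 14.9% in the neoSFs and 27.8% to 40.1% in the monoiPSCs. Its own NRC was not higher there (log2 fold change -0.35, not called), so the larger share goes with the smaller sum. A ratio of 2 genes within a library does not depend on how libraries are scaled. The NRC ratio of *KLF5* to *KLF4* was 0.805 and 0.379 in the neoSFs and 3.39 to 14.8 in the monoiPSCs, without overlap. The ratio of *KLF2* to *KLF4* was 2.37 and 1.86 in the neoSFs and 1.12 to 1.75 in the monoiPSCs, a much smaller shift. The ratio of the CtBP-dependent repressors *KLF3* and *KLF12* was 1.36 and 1.95 in the neoSFs and 2.60 to 6.97 in the monoiPSCs.

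**Figure D4:**
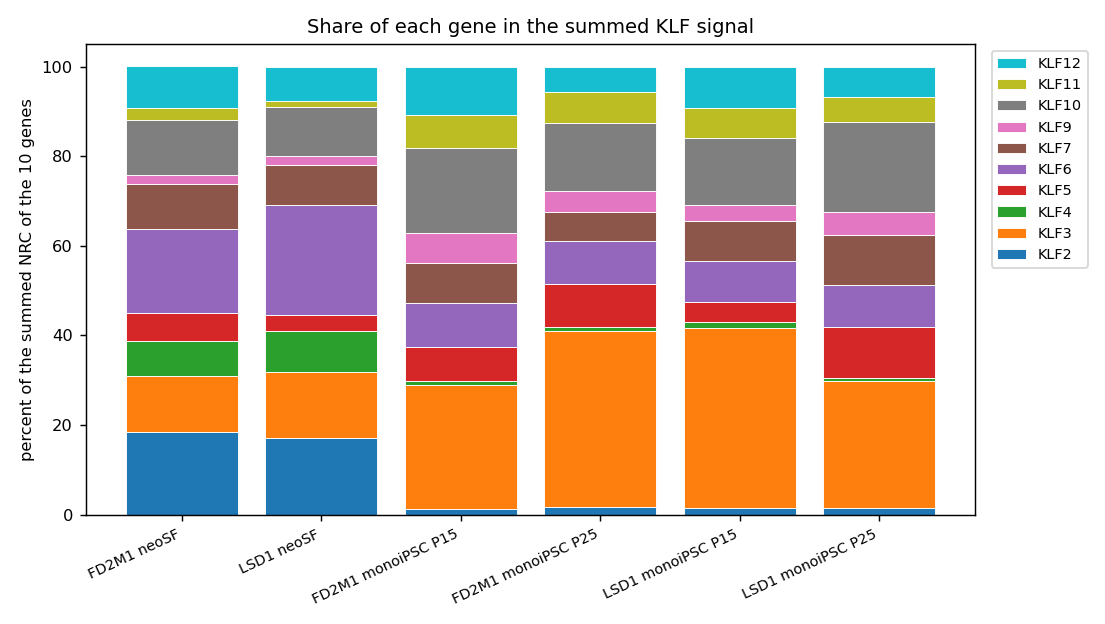
Share of each gene in the summed NRC of the 10 KLF genes (y, percent) in each library (x). *KLF3* takes 27.8% to 40.1% in the monoiPSC libraries and up to 14.9% in the neoSFs, and the *KLF2* and *KLF4* bands nearly vanish. The sum is smaller in the monoiPSCs, and the NRC of *KLF3* itself is not higher there.

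Of 8 further KLF symbols, 3 had a row. *KLF8* was lower, with an NRC of 1556 and 1964 in the neoSFs and 612.0 to 1010 in the monoiPSCs (log2 fold change -1.11, standard error 0.23, adjusted p = 0.00465). *KLF13* was not called, with a mean NRC of 2087 ± 682.3 (SD, n = 2) in the neoSFs and 2188 ± 628.2 (SD, n = 4) in the monoiPSCs. *KLF1*, the red blood cell member, had an NRC of at most 6.34 in any library and was not tested. The SP factors share the zinc fingers of the KLFs and bind the same GC-rich elements. Of 7 SP genes with a row 5 were tested, of which 2 were higher and 3 were not called. *SP8* was at 3 counts or fewer in both neoSF libraries and averaged 144.0 ± 61.7 (SD, n = 4) in NRC in the monoiPSCs. *SP4* had a mean of 429.3 ± 24.7 (SD, n = 2) in the neoSFs and 1150 ± 145.5 (SD, n = 4) in the monoiPSCs, and was 1.52 higher on the log2 scale (standard error 0.18, adjusted p = 0.000363). *SP2*, at -0.81 on the log2 scale (adjusted p = 0.00148), passed on p but changed less than 2-fold. *SP3* had a log2 fold change of 0.19 and *SP5* of 1.87 (adjusted p = 0.0919), and *SP6* and *SP9* had an NRC of at most 40.8 and were not tested.

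Genes of pathways that act upstream of KLFs were counted from lists, which also hold targets and feedback inhibitors of these pathways. The plot of the lists shows every tested gene. Each count is to be read beside the 21.6% of all tested genes called lower and the 24.3% called higher. The lists, too, were chosen with earlier results of these data known. For LIF signalling, which induces *KLF4* in mouse embryonic stem cells, 7 of 7 genes were tested, and 7 were lower in the monoiPSCs. The signal transducer *IL6ST* (gp130) had an NRC of 12640 ± 3476 (SD, n = 2) in the neoSFs and 2859 ± 546.1 (SD, n = 4) in the monoiPSCs (log2 fold change -2.05, adjusted p = 0.00025), and *STAT3* 7412 ± 587.1 and 2700 ± 252.4 (log2 fold change -1.36, adjusted p = 0.000225). The receptor *LIFR* ranged from 177.1 to 952.8 in the monoiPSCs, against 1388 and 2069 in the neoSFs. The kinase *JAK2* fell by 3.41 on the log2 scale and the feedback inhibitor *SOCS3* fell by 1.66. The ligand *LIF*, which the monoiPSC medium supplied as the human protein, had an NRC of 2218 and 1125 in the neoSFs and 17.6 to 63.6 in the monoiPSCs.

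The ERK5 kinase cascade and the MEF2 factors induce *KLF2* and *KLF4* in endothelium. Of these 7 genes, 4 were lower, 1 was higher and 2 were not called. *MAP3K3* and *MEF2A* were the lower genes with the highest NRC in neoSFs, at 2389 ± 260.0 and 1904 ± 5.81 (SD, n = 2), and at 1085 ± 112.0 and 670.4 ± 111.9 (SD, n = 4) in the monoiPSCs. *MEF2D* and *MAP3K2* were also lower, at -2.26 and -1.49 on the log2 scale. *MEF2C* was higher, with 2301 ± 1201 (SD, n = 2) in the neoSFs and 6114 ± 1140 (SD, n = 4) in the monoiPSCs (log2 fold change 1.51, adjusted p = 0.00605), and *MAPK7*, which encodes ERK5 itself, had a log2 fold change of 0.08 (adjusted p = 0.633).

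Several KLFs, *KLF2*, *KLF4*, *KLF6* and *KLF10* among them, respond early to serum and growth factors. In a list of 18 serum-induced immediate-early genes and their regulators, 17 were tested, of which 11 were lower, 1 was higher and 5 were not called, and the median on the log2 scale was -2.53. The matrix proteins *CCN2* and *CCN1*, found under their older symbols, had the highest NRC of the lower genes, with means of 177300 and 32810 in the neoSFs and 1472 and 1049 in the monoiPSCs. *FOS* fell by 4.49 on the log2 scale and *EGR1* fell by 2.53. *ATF3* was higher, at 1.25 (adjusted p = 0.0474), and *SRF*, the factor that binds serum response elements, was not called, at 0.19 (adjusted p = 0.346). The medium with serum and the neoSFs cannot be told apart in this design.

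For TGF-beta, which induces *KLF10* and *KLF11*, 4 of 9 genes were lower and 5 were not called. Of the genes not called, the receptor *TGFBR1* and the transducers *SMAD3* and *SMAD4* had log2 fold changes of 0.48, 0.81 and 0.25, the ligand *TGFB1* had -0.23, and the transducer *SMAD2* had -0.46 and passed on p (adjusted p = 0.0336) but not on fold. *TGFB2* and *TGFB3* were the lower genes with the highest NRC. *TGFB2* had 17390 ± 552.8 (SD, n = 2) in the neoSFs and 2425 ± 536.1 (SD, n = 4) in the monoiPSCs, and *TGFB3* 3677 ± 2819 and 18.4 ± 4.99. The receptor *TGFBR2* fell by 3.52 on the log2 scale and the inhibitor *SMAD7* fell by 2.86. Among 7 genes of glucocorticoid and thyroid hormone action, which induces *KLF9*, 3 were lower, 1 was higher and 3 were not called. *PER1*, a clock gene, and *THRB*, a thyroid hormone receptor, were the lower genes with the highest NRC, at -1.52 and -4.65 on the log2 scale. The glucocorticoid-induced gene *TSC22D3* (GILZ) was higher, at 3.22, and the receptor *NR3C1* was at -0.66 (adjusted p = 0.0317), under the fold threshold.

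Among 12 corepressors and coactivators through which KLFs act, 3 were higher and 9 were not called, a share of higher genes close to the 24.3% among all genes tested. The 3 higher genes were the deacetylases *HDAC1*, with an NRC of 2605 ± 293.8 (SD, n = 2) in the neoSFs and 10900 ± 2157 (SD, n = 4) in the monoiPSCs, and *HDAC2*, with 1742 ± 119.8 and 4803 ± 793.7, and the corepressor *CTBP2*, with 958.8 ± 10.2 and 2154 ± 328.5. *SIN3A* had a log2 fold change of 0.23 (adjusted p = 0.207). *CREBBP*, the acetyltransferase CBP, was at -0.65 and *SIN3B* at -0.55, which passed on p (adjusted p = 0.00714 and 0.0258) but not on fold. In the other direction, *CTBP1* and *HDAC3* were each at 0.55 and also passed on p (adjusted p = 0.0107 and 0.00819) but not on fold. Of 7 ubiquitin ligase genes whose products act on KLF proteins, 1 was lower, *FBXO32*, with an NRC of 114.7 ± 30.9 (SD, n = 2) in the neoSFs and 11.1 ± 8.23 (SD, n = 4) in the monoiPSCs, and 6 were not called.

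**Figure D5:**
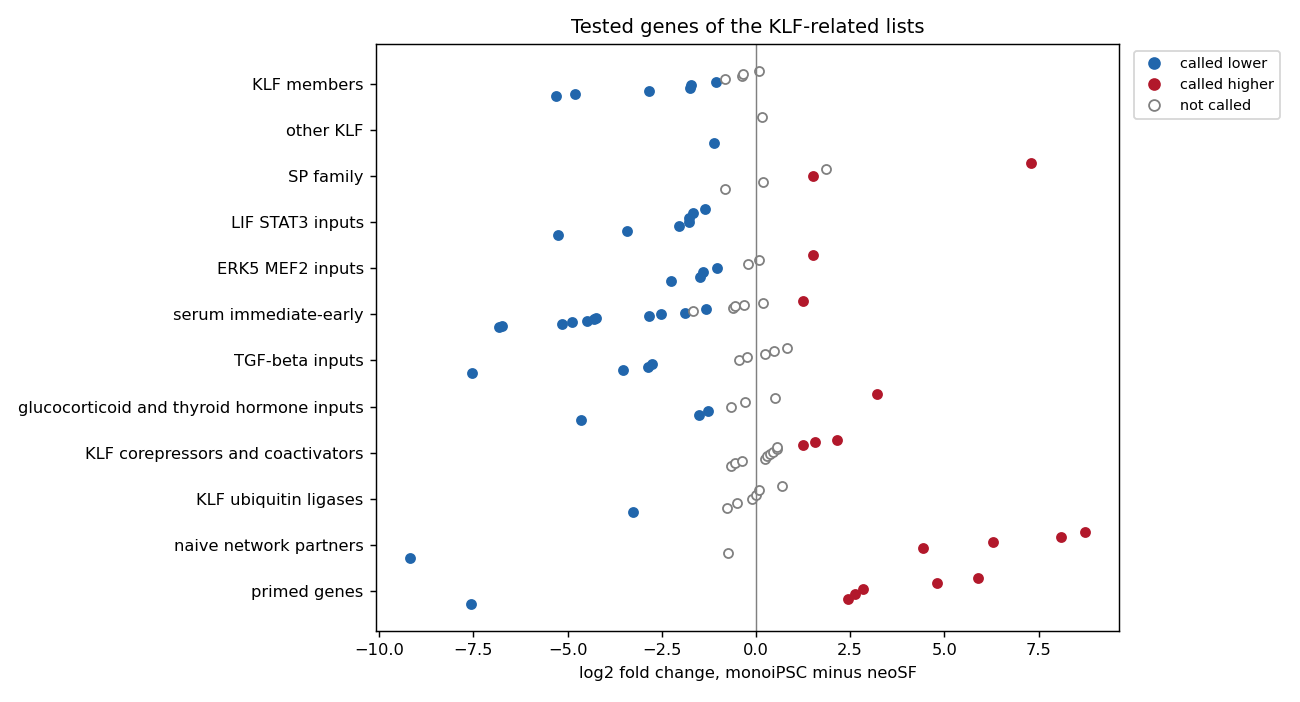
Log2 fold change (monoiPSC minus neoSF, x) of each tested gene in the KLF list and 11 related lists (y). Blue points are called lower, red points called higher and open points not called, and points of a list are spread vertically for legibility. All 7 genes of the LIF and STAT3 list are blue, and the corepressor and coactivator list has 3 red points among 12, close to the 24.3% called higher among all genes tested.

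The partners of KLFs in the naive network of mouse stem cells were mixed. Of 8 such genes 7 had a row and 6 were tested, of which 4 were higher, 1 was lower and 1 was not called. *SALL4* had an NRC of 122.6 ± 28.1 (SD, n = 2) in the neoSFs and 2471 ± 523.9 (SD, n = 4) in the monoiPSCs, and *GBX2* 5.38 ± 0.664 and 1375 ± 375.5. *TBX3* was lower, with 1867 and 1705 in the neoSFs and at most 4.39 in a monoiPSC library. *TFCP2L1* had a log2 fold change of -0.75 (adjusted p = 0.103), with an NRC of 36.8 and 48.3 in the neoSFs and 21.6 to 28.1 in the monoiPSCs, and *ESRRB* reached at most 24.5 in any library and was not tested. Of 7 genes of the primed state 6 were tested, of which 5 were higher and 1 was lower. The gene not tested, *OTX2*, had an NRC of at most 3.37 in any library. *DUSP6* and *ZIC2* had the highest NRC of the higher genes, with means of 9638 and 6776 in the monoiPSCs. The FD2M1 neoSFs had an NRC of 524.0 for *ZIC2* and the LSD1 neoSFs 0. The lower gene, *SFRP2*, is also a gene of dermal fibroblasts.

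The genes whose pattern over the 6 libraries was most like that of a KLF gene were found by the Euclidean distance of log2 values centred per gene, which mostly measures how similar the step between neoSFs and monoiPSCs is. *SMPDL3A* was among the 3 nearest genes of both *KLF2* (distance 0.43) and *KLF4* (distance 0.60). *KLF2* was followed by *SDR16C5* (0.58) and *IL7R* (0.60). *IL7R* had an NRC of at most 1.05 in the monoiPSCs, so its distance rests on log2 values at or near the floor. Its fitted log2 fold change was -6.80, beside -5.30 for *KLF2*. The nearest of *KLF4* were *TLR6* (0.38) and *FBN1* (0.68) beside *SMPDL3A*. For *KLF5* they were *AZIN2* (0.44), *SLC9A3R2* (0.61) and *PTPRN* (0.61). *KLF5* and *KLF12* were neighbours, with 0 genes between them in the order of the mMonDom1.pri annotation, which is another assembly than MonDom5. Of this pair *KLF12* was lower in the monoiPSCs and *KLF5* was not called, and their intervals, -2.25 to -1.22 for *KLF12* and -1.87 to 0.20 for *KLF5*, overlapped.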

How the data were processed

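RNA sequencing covered 2 neoSF cultures and 4 monoiPSC cultures. The authors aligned reads to MonDom5 and its RefSeq transcripts with StrandNGS, removed low-quality and non-primary multiply mapped reads, and deposited estimated counts per gene. Of the counts above 0, 86.8% were not whole (tolerance 1e-06), and they were rounded for testing. A second deposited table holds log2 values, which the authors normalized with DESeq, and the NRC is 2 to the power of these, or 0 where listed at 0, which takes in NRCs up to 1. The StrandNGS counting option for read pairs is not given in the sources used here. Depth limits precision most in the neoSFs, where 3 counts are an NRC of 5.85 and 4.75, against 1.55 to 1.88 in the monoiPSCs.

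Tests used edgeR 4.0.16 with TMM scaling (R 4.3.3), with DESeq2 1.42.0 and limma 3.58.1 as alternatives, and were checked on simulated data. Of 200 genes given a 4-fold change, 147 were recovered for monoiPSCs against neoSFs. The number was 194 for passage, 186 for the line and 86 for the interaction. Of the genes left unchanged, 10 were called for monoiPSCs against neoSFs, 23 for passage, 14 for the line and 17 for the interaction. The simulated interaction was called with the 2-fold threshold, which the interaction test on the data did not use. The standard error is the log2 fold change divided by the square root of F. The KLF genes and lists were chosen with earlier results of these data known. Named beyond the KLF and SP families are, per list, the called genes with the 2 highest mean NRCs, and for *KLF2*, *KLF4* and *KLF5* the 3 genes nearest in pattern; the other list genes were named after their values were seen. Of the gene numbers, 25831 were in the RefSeq table of mMonDom1.pri, which gave names for 380 LOC rows, *KRT14* and *DCX* among them. Each line shares its strain with 1 neoSF culture, its parent, so strain was the block in an alternative fit. Across genes, the strain difference in neoSFs correlated with that in monoiPSCs at r = 0.04. No KLF protein or promoter sequence is shown.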

Additional observations from a re-analysis of the deposited data

Results flagged for a closer look

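*KLF11* stood out because the strains moved in opposite directions. Both FD2M1 monoiPSC libraries lay below the FD2M1 neoSFs and both LSD1 monoiPSC libraries above the LSD1 neoSFs, a change 0.98 larger in LSD1 on the log2 scale (95% confidence interval 0.10 to 1.87). The difference was tested as an interaction in edgeR's quasi-likelihood fit, with an adjusted p of 0.491, so it did not pass the threshold over all genes, and it rests on 1 neoSF library per strain with 293.9 and 172.9 counts.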

How the results depend on the processing

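The 6 lower KLF genes had negative fold changes in all 13 alternatives of scaling, test, filter, block, summed passages and left-out libraries, with 0 called higher in each. *KLF2*, *KLF4*, *KLF6*, *KLF7* and *KLF12* kept their call in each, and *KLF10* in 10 of 13, so that 5 to 7 genes were called lower. With each library left out in turn the log2 fold change of *KLF10* ranged from -1.26 to -0.96, that of *KLF5* from -1.18 to -0.37, and that of *KLF11* from -0.35, without the LSD1 neoSFs, to 0.70, without the FD2M1 neoSFs. The 4 monoiPSC libraries had a *KLF11* NRC of 397.1 to 438.7, between 273.9 in the LSD1 neoSFs and 573.4 in the FD2M1 neoSFs. The sign therefore depended on which neoSF library was left out. The cause of the difference between the neoSF libraries was not tested. The replicate block on strain changed no call, with *KLF10* at -1.06 and *KLF11* at 0.14. RLE scaling and DESeq2 put the median of all genes at 0.03 in place of 0.08, and limma at -0.01, and 0 KLF genes were called for passage, line or interaction under any alternative tried for them. The smallest count of any of the 10 genes in a library was 77 (*KLF4*), and that of the 4 genes not called was 172.9 (*KLF11*).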
